A study of Mus musculus with 10 samples.

Results

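This section describes 10 genes used as markers of macrophages and dendritic cells in messenger RNA from small-intestinal epithelial cells of mice: Itgax, Itgam, Cd68, Lyz2, Csf1r, Adgre1, Cd14, C1qa, C1qb and Mpeg1. They were found by their gene symbols, and all 10 had a row among the 24839 genes and assembled transcripts of the table. Titles sort the libraries into 5 called NCD and 5 called HCD, where HCD is the diet high in cellulose that the series title names. NCD is nowhere spelled out in the sources used here, and strain and age are not given there. By their treatment labels, all NCD libraries are untreated and all HCD libraries had OVA treatment, OVA being ovalbumin, a protein of egg white that serves as a food allergen. The design text instead describes 4 groups, with each diet given with and without OVA. Per that design, mice ate the diets for 60 days and received saline or OVA, the latter as 2 injections of 50 µg with 1 mg of alum on days 0 and 14 and then 5 oral doses of 50 mg. Diet and OVA cannot be told apart in the comparison of HCD with NCD. Library numbers are 1, 2, 3, 9 and 10 in NCD and 11, 12, 13, 19 and 20 in HCD, for replicates 1 to 5 in that order. The order of handling, if it followed these numbers, cannot be told apart from the groups either. No label ties a library to a named mouse, so p-values measure only the spread between these libraries, which may be technical.

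Macrophages and dendritic cells are phagocytes that lie mainly in the lamina propria, the connective tissue under the gut epithelium. They carry integrins for adhesion, lysosomal proteins for digestion, receptors for growth factors and for bacterial products, and secrete the complement protein C1q. Epithelial preparations also hold intraepithelial lymphocytes, T cells that sit between enterocytes, and these can make some genes that are used as myeloid markers. Itgax is one such gene in the mouse.

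Expression values were FPKM, fragments scaled by the submitters to transcript length and to the size of the library. How deeply the libraries were sequenced is unknown. Between 13577 and 16240 rows were above 0 in each library. Epithelial markers were abundant throughout, with the 12 listed genes summing to 10921 to 16267 FPKM. The 13 mitochondrially encoded genes took 3.23% to 5.76% of the summed FPKM in NCD and 14.8% to 29.5% in HCD, with HCD replicate 1 the highest. Because FPKM are shares of a library, this lowers other genes in HCD. The median difference over all 10321 tested rows was -0.19 on the log2(FPKM + 1) scale, or -0.05 when libraries were scaled without the mitochondrial genes. Among NCD libraries, replicate 2 stood apart with 157 FPKM summed over 8 B and plasma cell markers, against 25.1 to 69.3 FPKM in the others.

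The question put to the 10 markers is whether their transcripts differed between HCD and NCD preparations. Itgax and Mpeg1 rose in HCD, and the other 8 did not pass the test. Testing was by limma on log2(FPKM + 1), with Benjamini-Hochberg adjustment over all tested rows and a threshold of 0.05. All 10 markers reached the minimum for testing, a mean of 1 FPKM over the libraries. Mpeg1 did so only through HCD, since its NCD mean was 0.850 FPKM, and it also passed without this filter (adjusted p = 0.0197). The 2 of 10 that rose stand beside 7.13% of all tested rows that rose, and the 0 of 10 that fell beside 19.2% of all tested rows that fell. The same 2 of 10 also had a p under 0.05 before adjustment. Scaled without the mitochondrial genes, 936 rows rose and 861 fell over the whole table, in place of 736 and 1982, and with quantile normalization 928 rose and 883 fell. In both of these settings the same 2 markers passed, Itgax and Mpeg1. The mean FPKM was higher in HCD for all 10 markers, of which 8 did not pass. The share of all tested rows with a higher HCD mean was not computed. The markers also share libraries and their scaling, so their directions are not separate observations. The median difference of the markers was 0.46 on the log2(FPKM + 1) scale, beside the median of -0.19 over all tested rows. In bulk RNA, a change in the number of cells of a type and a change in RNA per cell cannot be told apart.

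**Figure D1:**
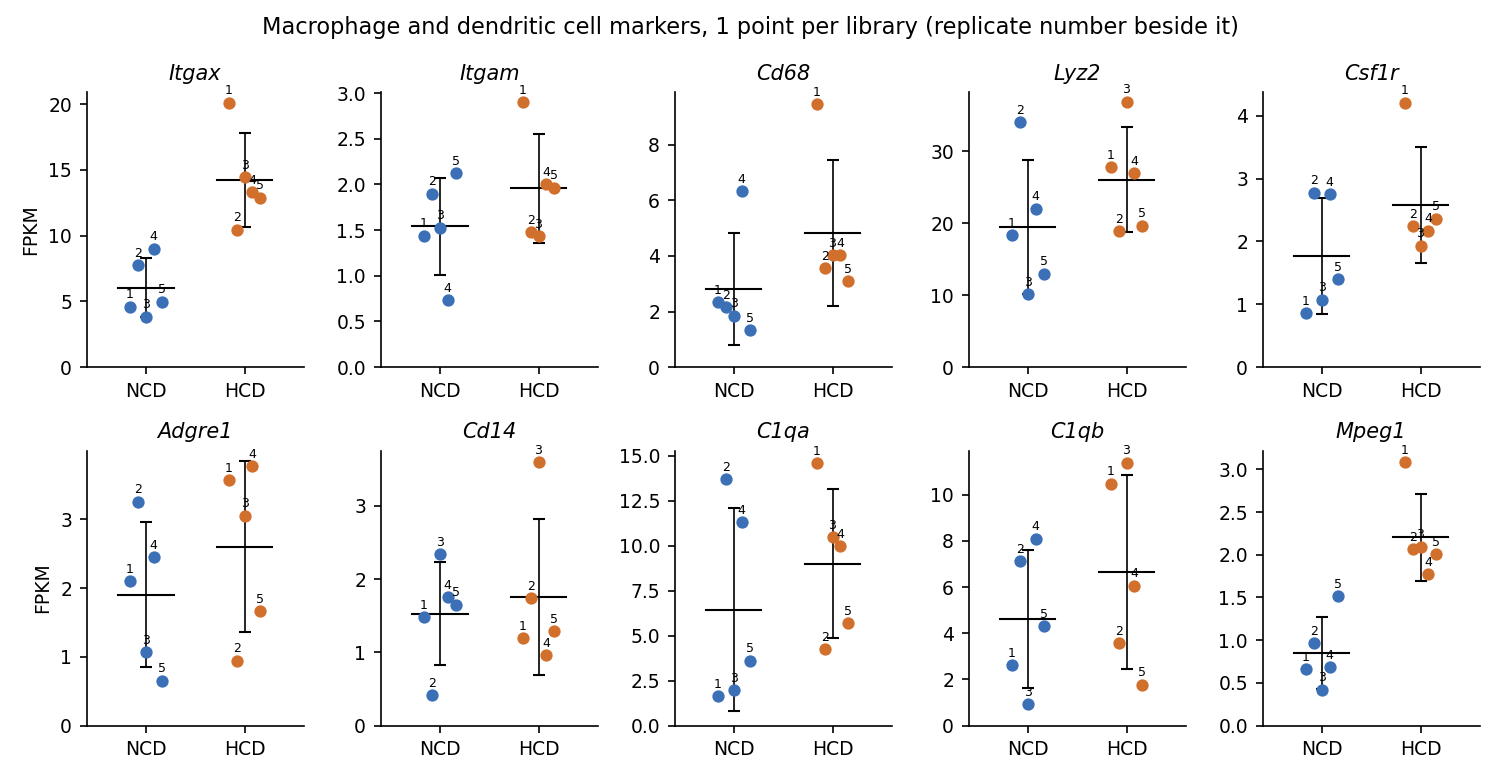
FPKM of the 10 markers in each library, with replicate numbers, the mean (line) and the SD over 5 libraries (bars), each panel with its own axis from 0. Only in the Itgax and Mpeg1 panels does every HCD point lie above every NCD point.

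Of the 10 markers, Lyz2 had the highest mean level over the libraries, 22.8 FPKM. It was followed by Itgax at 10.1, C1qa at 7.73, C1qb at 5.64, Cd68 at 3.82, Adgre1 at 2.25, Csf1r at 2.18, Itgam at 1.75, Cd14 at 1.64 and Mpeg1 at 1.53 FPKM. Since FPKM are per length, these levels can be set side by side. The order differs within groups: in NCD the mean of C1qa (6.45 FPKM) was above that of Itgax (6.04 FPKM), and in HCD the mean of Mpeg1 (2.20 FPKM) was above those of Itgam (1.96 FPKM) and Cd14 (1.76 FPKM). Lyz2 was above Itgax in 10 of 10 libraries and Cd68 above Adgre1 in 9 of 10. Itgax was above C1qa, and C1qb above Cd68, in 8 of 10 libraries. From Adgre1 down, neighbours changed places between libraries: Adgre1 was above Csf1r in 4 of 10, Itgam above Cd14 in 5 of 10 and Cd14 above Mpeg1 in 5 of 10.

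Itgax and Itgam encode the integrin alpha chains CD11c and CD11b, and each pairs with the beta2 chain encoded by Itgb2. On GRCm38 the genes are neighbours on chromosome 7, Itgam at chr7:128062640-128118491 and Itgax at chr7:128129547-128150657, both on the forward strand. Itgax was at 4.61, 7.76, 3.84, 9.02 and 4.97 FPKM in NCD replicates 1 to 5, and at 20.1, 10.5, 14.5, 13.3 and 12.9 FPKM in HCD replicates 1 to 5. The groups did not overlap, which held for 4.53% of all tested rows in this direction. The mean went from 6.04 ± 2.23 to 14.2 ± 3.59 FPKM (SD, n = 5), a ratio of 2.36. On the log2(FPKM + 1) scale the difference was 1.14 ± 0.22 (SE), with an adjusted p of 0.00317 in limma. It was 1.30 under scaling without mitochondrial genes (adjusted p = 0.00167). Within the runs of library numbers it was 1.33 in replicates 1 to 3 (adjusted p = 0.0251) and 0.87 in replicates 4 and 5, where it did not pass (adjusted p = 0.221, with 2 libraries per group).

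Itgam was lower than Itgax in every library, at 1.44, 1.90, 1.53, 0.736 and 2.12 FPKM in NCD and 2.90, 1.48, 1.43, 2.00 and 1.97 FPKM in HCD. The groups overlapped over most of their range. Its difference was 0.22 on the log2(FPKM + 1) scale, with a 95% interval from -0.23 to 0.67 (adjusted p = 0.459). The ratio of Itgax to Itgam was 2.34 to 12.3 in NCD and 6.56 to 10.1 in HCD, and NCD replicate 4 with its low Itgam value held the highest ratio.

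The partner chain Itgb2 rose with Itgax, from 5.56 ± 2.60 to 12.9 ± 1.56 FPKM (SD), a difference of 1.17 on the log2 scale with an SE of 0.25 (adjusted p = 0.00442 in limma). The ratio of Itgax to Itgb2 was 0.858 to 1.57 in NCD and 0.934 to 1.42 in HCD. Of 9 genes listed with the beta2 integrins, 7 were tested and 5 rose: Itgb2, Itgal, Itgb7, Itgae and Fermt3. Itgal, the alpha chain of LFA-1 on lymphocytes, went from 2.88 ± 1.68 to 5.56 ± 0.802 FPKM (adjusted p = 0.0217). It lost its call without the filter on low values (adjusted p = 0.0572) and without NCD replicate 1 (adjusted p = 0.0599) or NCD replicate 3 (adjusted p = 0.0580). Fermt3, kindlin-3, which activates integrins in blood cells, went from 5.04 ± 2.60 to 16.7 ± 3.67 FPKM (adjusted p = 7.23e-04). Itgb7 and Itgae, the 2 chains of the integrin that binds E-cadherin on enterocytes, rose by 1.79 and 1.94 on the log2 scale. Itgae was at 4.13 to 7.77 FPKM in NCD and 22.4 to 28.4 FPKM in HCD. The ratio of Itgax to Itgae was 0.763 to 1.31 in NCD and 0.467 to 0.707 in HCD.

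Markers of T cells also rose in HCD. All 16 listed T cell and intraepithelial lymphocyte markers were tested and 15 rose, with a median log2 difference of 2.04, and none was at 0. Their summed level was 298 to 942 FPKM in NCD and 1993 to 3907 FPKM in HCD. Within NCD, the highest sum was that of replicate 4, which also had the highest Itgax, and within HCD the highest sum and the highest Itgax were both in replicate 1. The macrophage marker Cd68 was highest in the same libraries, at 6.34 FPKM in NCD replicate 4 and 9.47 FPKM in HCD replicate 1. Of 18 dendritic cell genes, 9 reached the minimum for testing and 2 of these, Irf4 and Sirpa, rose, while 6 were under 1 FPKM in every library: Flt3, Xcr1, Clec9a, Zbtb46, Cd207 and Cadm1. The part of T cells or dendritic cells in the Itgax result was not tested.

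**Figure D2:**
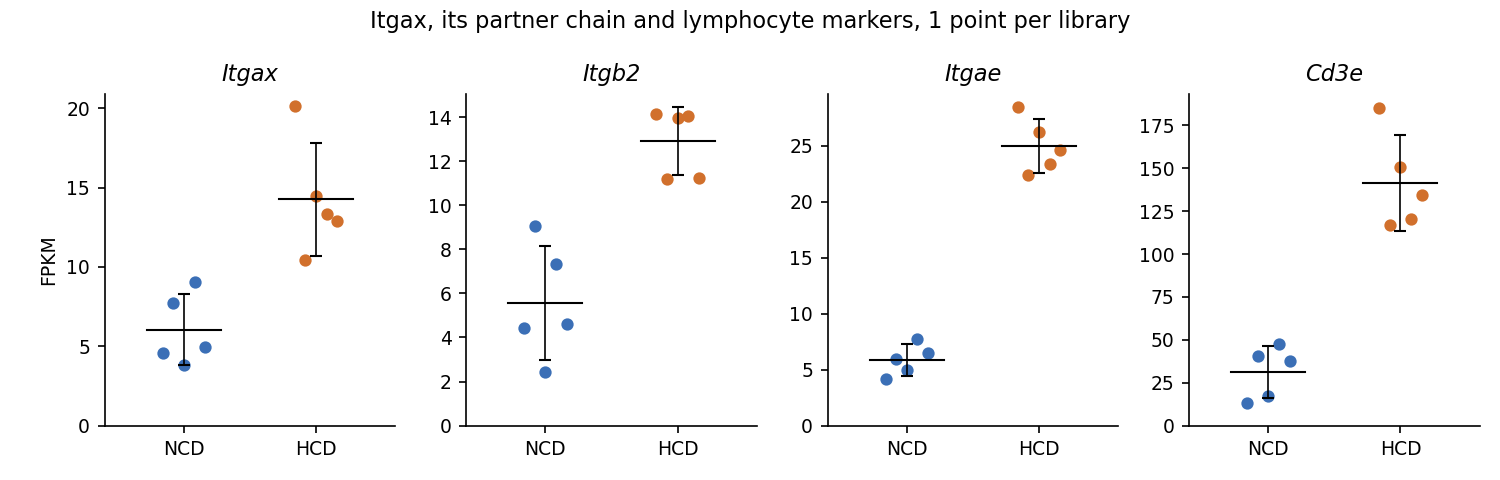
FPKM of Itgax, its partner chain Itgb2, and Itgae and Cd3e in each library, with the mean (line) and SD (bars) over 5 libraries. Itgae and Cd3e are from the list of T cell and intraepithelial lymphocyte markers, and Itgae is also listed with the beta2 integrins. In all 4 genes every HCD library lies above every NCD library.

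Mpeg1, Cd68 and Lyz2 encode proteins by which phagocytes kill and digest what they take up. Mpeg1 encodes perforin-2, a pore-forming protein, and lies at chr19:12460779-12465283. It was at 0.662, 0.963, 0.423, 0.682 and 1.52 FPKM in NCD, and at 3.09, 2.06, 2.10, 1.77 and 2.01 FPKM in HCD. The groups did not overlap, with NCD replicate 5 closest to the HCD libraries. The mean went from 0.850 ± 0.420 to 2.20 ± 0.510 FPKM (SD, n = 5), a ratio of 2.59 at levels where a few fragments can move a value. The difference was 0.81 ± 0.20 (SE) on the log2(FPKM + 1) scale (adjusted p = 0.0100 in limma). With a pseudocount of 0.1 in place of 1 it was 1.36, and with one of 5 it was 0.30, so its size depends on that choice while the call did not. It was 1.02 in replicates 1 to 3 (adjusted p = 0.0339) and 0.49 in replicates 4 and 5 (adjusted p = 0.544).

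The promoters of the 2 markers that rose are printed with those of Itgam and C1qb, which did not pass. They come from RefSeq, build GRCm38.p6, from 250 to 11 bases before the gene's start, 5′ to 3′ on the gene's strand. Promoters were found for 6 of the 10 markers: Itgax, Itgam, Cd68, Lyz2, C1qb and Mpeg1. Capitals mark GAGGAA, the core of the sequence bound by PU.1, the transcription factor (gene Spi1) that myeloid cells depend on, searched on both strands. These letters were found in 3 of the 6 promoters, those of Itgam, Cd68 and C1qb, and in 22.3% of the 32851 promoters of the table in the same window. Itgax (chr7:128129300-128129539, forward strand) and Mpeg1 (chr19:12460520-12460759, forward strand) held none in this window. The promoter of Lyz2, a marker that did not pass, is not printed and held none either. Itgam (chr7:128062390-128062629, forward strand) and C1qb (chr4:136886211-136886450, reverse strand) each held 1 marked run.
Itgax: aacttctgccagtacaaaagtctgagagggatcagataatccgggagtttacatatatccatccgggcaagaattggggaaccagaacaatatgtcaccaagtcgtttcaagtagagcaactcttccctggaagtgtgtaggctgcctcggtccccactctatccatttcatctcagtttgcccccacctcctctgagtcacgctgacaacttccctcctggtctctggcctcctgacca
Mpeg1: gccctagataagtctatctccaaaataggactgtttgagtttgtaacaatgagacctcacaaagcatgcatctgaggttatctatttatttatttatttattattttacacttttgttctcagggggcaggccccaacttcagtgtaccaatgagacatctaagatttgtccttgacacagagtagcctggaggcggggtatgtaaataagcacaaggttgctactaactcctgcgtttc
Itgam: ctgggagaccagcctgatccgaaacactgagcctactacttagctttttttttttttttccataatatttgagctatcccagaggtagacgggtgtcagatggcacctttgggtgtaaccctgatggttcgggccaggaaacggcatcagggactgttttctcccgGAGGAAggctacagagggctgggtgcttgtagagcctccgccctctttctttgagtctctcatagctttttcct
C1qb: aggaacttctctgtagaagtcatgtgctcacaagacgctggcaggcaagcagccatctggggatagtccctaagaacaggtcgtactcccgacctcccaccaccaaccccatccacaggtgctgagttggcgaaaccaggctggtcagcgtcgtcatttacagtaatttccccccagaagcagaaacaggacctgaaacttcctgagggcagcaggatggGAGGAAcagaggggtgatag

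Cd68 encodes macrosialin, a glycoprotein of lysosomes, at chr11:69664213-69666153. It was at 2.34, 2.15, 1.85, 6.34 and 1.32 FPKM in NCD and at 9.47, 3.56, 4.03, 4.04 and 3.08 FPKM in HCD. A single library stood high in each group, NCD replicate 4 and HCD replicate 1, and the groups overlapped through the first. The means were 2.80 ± 2.02 and 4.84 ± 2.62 FPKM, and the log2 difference of 0.66 had a 95% interval from -0.02 to 1.33 (adjusted p = 0.140). Without NCD replicate 4 the difference was 0.92 and passed (adjusted p = 0.0228). Among 16 other lysosomal genes, all tested, none rose and 2 fell, Npc2 and Ctsz, of which neither passed under scaling without mitochondrial genes (adjusted p = 0.224 and 0.282). With quantile normalization none fell and 1 rose. Ctss, the cathepsin S of antigen-presenting cells, was at 19.9 to 25.9 FPKM in NCD and 21.1 to 30.7 FPKM in HCD.

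Lyz2 encodes lysozyme M, an enzyme that cuts bacterial cell walls and is the lysozyme of macrophages, while its neighbour Lyz1 encodes the lysozyme of Paneth cells in the crypts. Both lie on chromosome 10 on the reverse strand, Lyz2 at chr10:117277331-117282321 and Lyz1 at chr10:117287797-117292868, so that 5476 bases separate them. Their coding sequences, in the GENCODE M21 transcripts, are each 447 bases long, differ at 22 positions and are 95.1% identical, with 1 run of 118 identical bases. The division of fragments between the 2 genes was the submitters', and both levels are uncertain for that reason. The 60 coding bases with the most differences, positions 61 to 120 counted from the A of the start codon, show how alike the genes are, with the 9 bases that differ in capitals.
Lyz1: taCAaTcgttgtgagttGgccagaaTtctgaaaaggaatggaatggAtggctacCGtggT
Lyz2: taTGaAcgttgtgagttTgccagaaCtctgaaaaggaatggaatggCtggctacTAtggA

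Lyz2 was at 18.3, 34.0, 10.1, 22.0 and 12.97 FPKM in NCD and at 27.7, 18.9, 36.9, 26.9 and 19.6 FPKM in HCD. The groups overlapped, since NCD replicate 2 exceeded 4 of the 5 HCD libraries. The means were 19.5 ± 9.35 and 26.0 ± 7.30 FPKM, and the difference of 0.47 had a 95% interval from -0.11 to 1.06 (adjusted p = 0.218). Without NCD replicate 2 it was 0.70 and passed (adjusted p = 0.0454).

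Lyz1 moved the other way. It was at 305, 60.0, 289.5, 114 and 154 FPKM in NCD and at 70.3, 15.5, 19.9, 35.5 and 95.5 FPKM in HCD, and it fell by 2.02 on the log2 scale (adjusted p = 0.0106), a call lost without the filter on low values (adjusted p = 0.0501). Of 9 tested Paneth cell markers 5 fell, Lyz1 among them, and none rose; 4 fell under scaling without mitochondrial genes and 3 with quantile normalization. Their summed level was 296 to 1208 FPKM in NCD and 88.2 to 528 FPKM in HCD. In NCD, replicate 2 was the lowest library in Lyz1 and the highest in Lyz2, and replicate 3, among the 2 highest in Lyz1, was the lowest in Lyz2. As a share of both genes, Lyz2 made up 3.37% to 36.2% in NCD and 17.1% to 64.9% in HCD.

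**Figure D3:**
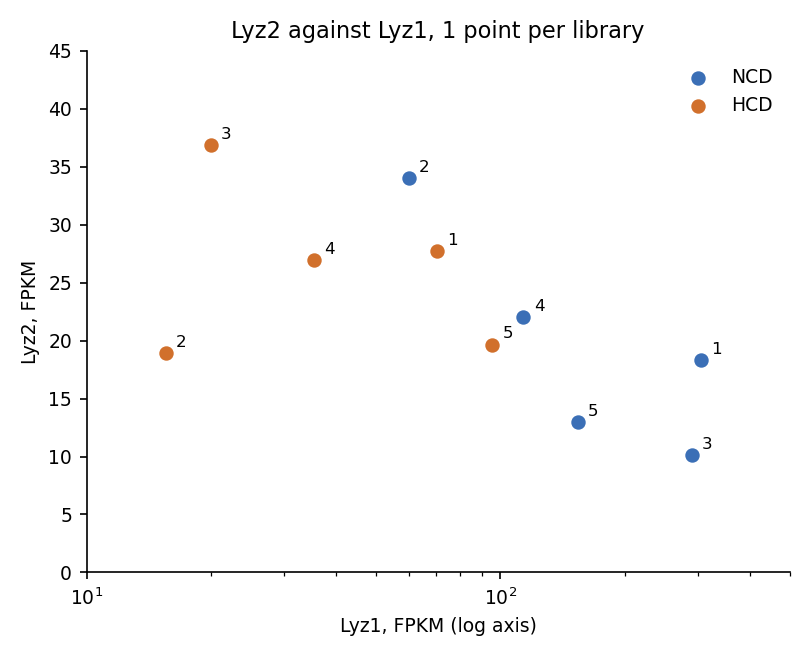
FPKM of Lyz2 (linear axis) against Lyz1 (log axis), 1 point per library with its replicate number. The NCD libraries spread from 60.0 to 305 FPKM in Lyz1, the HCD libraries from 15.5 to 95.5 FPKM, and the ranges of Lyz2 overlap.

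Csf1r, Adgre1 and Cd14 encode surface receptors. Csf1r, on chromosome 18 (61100598 to 61132149), is the receptor for CSF-1 and IL-34, on which most macrophages depend. It was at 0.855, 2.77, 1.08, 2.75 and 1.40 FPKM in NCD and at 4.21, 2.24, 1.93, 2.17 and 2.36 FPKM in HCD. NCD replicates 2 and 4 lay within the HCD range and the other 3 below it. The difference was 0.40 with a 95% interval from -0.13 to 0.93 (adjusted p = 0.246). Its ligand Csf1 was at 2.25 ± 0.560 and 3.08 ± 1.22 FPKM (adjusted p = 0.351). The ligand Il34 was under the minimum for testing, at 0.0818 to 0.469 FPKM in NCD and 0.586 to 2.02 FPKM in HCD. At such levels a few fragments can move a value.

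Of 8 listed genes of the colony-stimulating factors, their receptors and further growth factors, Flt3l among the last, 5 were tested and 2 rose. Flt3l, the growth factor of dendritic cells, which lymphocytes also make, went from 4.08 ± 2.65 to 11.8 ± 1.99 FPKM (adjusted p = 0.00579). Its receptor Flt3 was under 1 FPKM in every library. Csf2ra, a receptor chain for GM-CSF, went from 4.22 ± 1.66 to 8.38 ± 2.59 FPKM (adjusted p = 0.0272), a call that was lost without the filter on low values (adjusted p = 0.0723) and on leaving out any of NCD replicates 1, 2 and 3 and HCD replicates 1, 4 and 5 (adjusted p of 0.0515 to 0.0722).

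Adgre1 encodes F4/80, an adhesion receptor of mouse macrophages that eosinophils carry too, on chromosome 17 (57358691 to 57483527). It was at 2.10, 3.25, 1.06, 2.45 and 0.655 FPKM in NCD and at 3.57, 0.944, 3.05, 3.77 and 1.66 FPKM in HCD. Each group held high and low libraries, with HCD replicate 2 below 4 of the 5 NCD libraries. The difference was 0.31 with a 95% interval from -0.34 to 0.97 (adjusted p = 0.481).

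Cd14, on chromosome 18 (36725067 to 36726798), encodes the protein that hands bacterial lipopolysaccharide to the receptor TLR4 and its partner MD-2. It was at 1.48, 0.416, 2.33, 1.75 and 1.65 FPKM in NCD and at 1.19, 1.74, 3.59, 0.963 and 1.29 FPKM in HCD. NCD replicate 2, the highest NCD library in 4 other markers, was the lowest of all 10 libraries in Cd14. The difference of 0.11 had a 95% interval from -0.48 to 0.69 (adjusted p = 0.803). It turned to -0.09 without NCD replicate 2 and to -0.10 without HCD replicate 3. Tlr4 was listed at 0 in 6 libraries and at up to 0.170 FPKM in the others, and Ly96, which encodes MD-2, was at 0 to 1.20 FPKM. Of the 13 genes listed for recognition of lipopolysaccharide 6 were tested, and 2 of them fell, the signal adaptors Myd88 and Ticam1. Neither passed under scaling without mitochondrial genes (adjusted p = 0.0578 and 0.272).

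**Figure D4:**
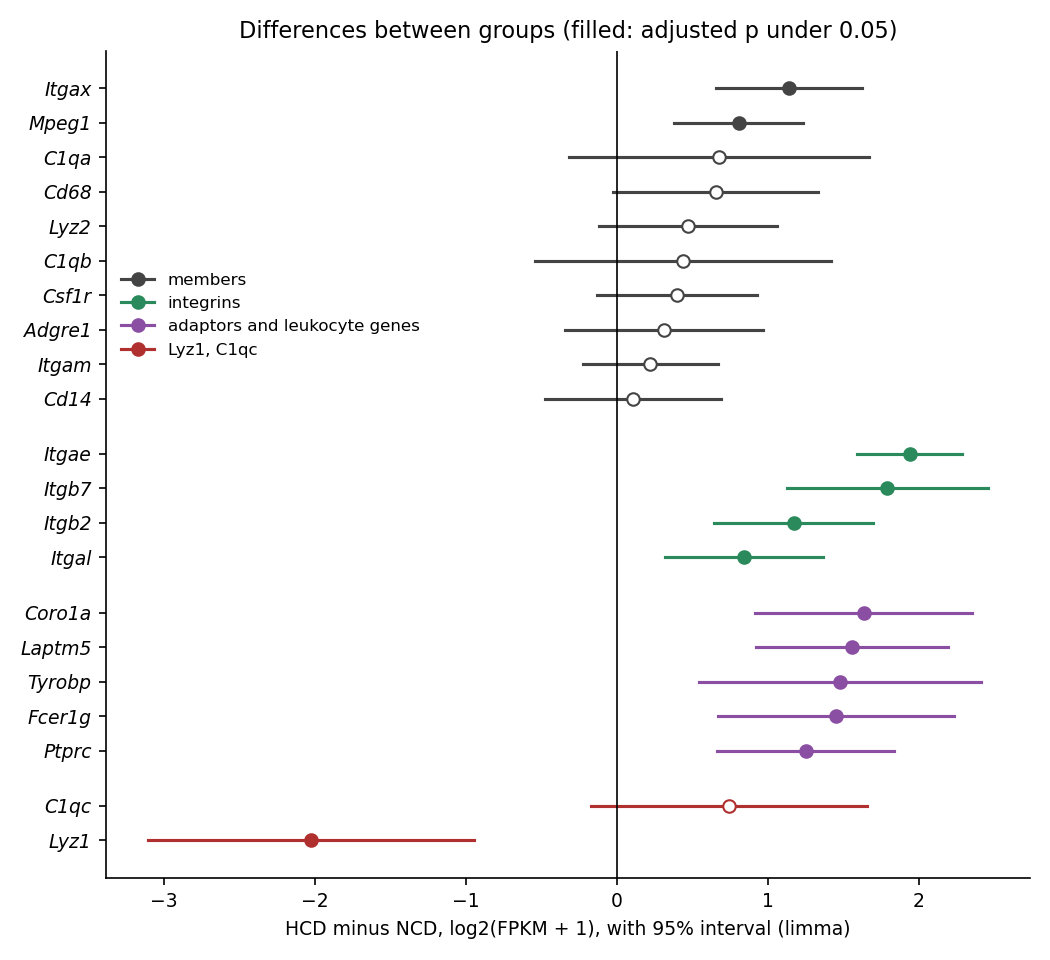
HCD minus NCD on the log2(FPKM + 1) scale with 95% intervals from limma for the 10 markers and for genes described beside them. Filled points passed at an adjusted p under 0.05: Itgax and Mpeg1 among the markers, with 1.14 and 0.81, the integrin and leukocyte genes shown, from 0.84 to 1.94, and Lyz1 at -2.02.

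C1qa and C1qb encode the A and B chains of C1q, the protein that starts the classical complement pathway and that resident tissue macrophages secrete. With C1qc, the gene of the C chain, they form a cluster on the reverse strand of chromosome 4 within 18675 bases: C1qb at chr4:136880129-136886187, C1qc at chr4:136889804-136893065 and C1qa at chr4:136895917-136898803. C1qa was at 1.65, 13.7, 1.98, 11.3 and 3.62 FPKM in NCD and at 14.6, 4.26, 10.5, 9.98 and 5.70 FPKM in HCD. NCD replicates 2 and 4 were higher than 4 of the 5 HCD libraries, and the other 3 NCD libraries were lower than every HCD library. The difference was 0.68 with a 95% interval from -0.31 to 1.67 (adjusted p = 0.299).

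C1qb was at 2.62, 7.13, 0.938, 8.09 and 4.31 FPKM in NCD and at 10.5, 3.57, 11.4, 6.07 and 1.77 FPKM in HCD. Here too NCD replicates 2 and 4 were the highest of their group, and HCD replicates 2, 4 and 5 lay below both. The difference was 0.44 with a 95% interval from -0.54 to 1.42 (adjusted p = 0.508). C1qc was at 0.964, 5.57, 1.26, 3.10 and 1.501 FPKM in NCD and at 9.11, 2.14, 6.49, 6.49 and 1.20 FPKM in HCD (difference 0.74, adjusted p = 0.214). The 3 chains were high in the same libraries: NCD replicates 2 and 4 held the 2 highest NCD values of each, and HCD replicates 1, 3 and 4 held the 3 highest HCD values of each. Summed over the chains, C1q was at 4.18 to 26.4 FPKM in NCD and 8.66 to 34.2 FPKM in HCD. Within NCD the highest value was 8.30 times the lowest in C1qa and 8.62 times in C1qb, against 2.35 to 5.61 times in the other 8 markers.

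Among 11 listed genes of C1 and its regulators, which included C1qc, 4 were tested. C1qbp, a mitochondrial protein named for its binding of C1q, fell by 1.17 (adjusted p = 0.00198) and by 1.00 under scaling without mitochondrial genes (adjusted p = 0.00761). C1ra and C1s1, which encode the proteases of the C1 complex, were under the minimum for testing, at no more than 1.15 and 0.0192 FPKM in any library.

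**Figure D5:**
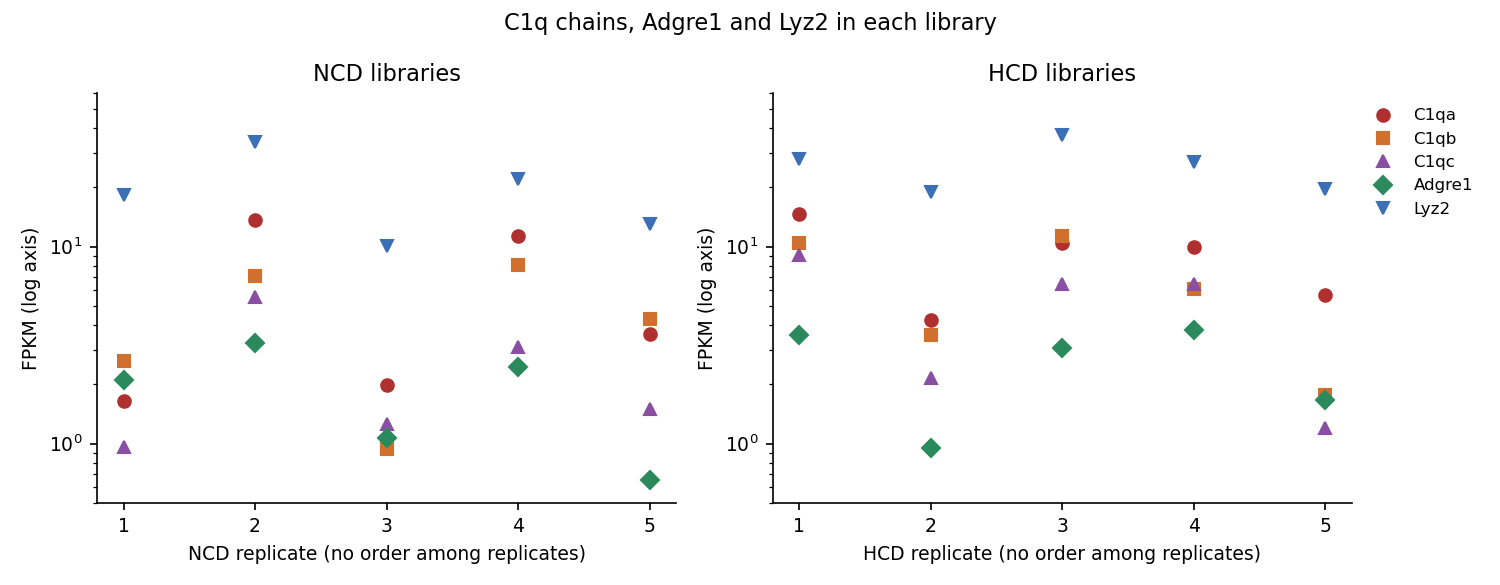
FPKM (log axis) of the C1q chains C1qa, C1qb and C1qc, of Adgre1 and of Lyz2 in each NCD library (left) and HCD library (right); replicates have no order. Replicates 2 and 4 of NCD and replicates 1, 3 and 4 of HCD hold the highest values of the 3 C1q chains.

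Within groups, the highest values gathered in a few libraries. In HCD, replicate 1 held the highest value of 6 of the 10 markers, replicate 3 that of 3 (Lyz2, Cd14 and C1qb) and replicate 4 that of Adgre1. In NCD, replicate 2 held the highest value of 4 markers, replicate 4 of 3, replicate 5 of 2 and replicate 3 of 1. Summed FPKM of the 10 markers was 25.1 to 74.1 in NCD and 49.2 to 97.4 in HCD. Over the 10 libraries, with each group's mean taken out, Pearson's r on the log2(FPKM + 1) scale was 0.93 between Itgax and C1qa, 0.89 between Itgax and Csf1r, 0.83 between C1qa and C1qb and 0.83 between Lyz2 and Adgre1. These are descriptions with no test, since the markers share libraries and their scaling. NCD replicate 2 was also the highest of all 10 libraries in the summed B and plasma cell markers, and their part in the pattern was not tested.

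By the same measure, the tested genes most like each marker were named by rule, 2 to a marker. For Itgax they were Anxa6 (r = 0.98), a membrane-binding annexin that itself rose by 1.08 (adjusted p = 0.0102), and Etfb (r = 0.96). For C1qa they were Emid1 (r = 0.99) and Il2rb (r = 0.98), a receptor chain for IL-2 and IL-15 on lymphocytes, which rose by 1.54 (adjusted p = 6.78e-04). For C1qb they were Chst12 (r = 0.97) and Slfn2 (r = 0.95), which rose by 2.02 and 0.96. For Lyz2 they were Map4k1 (r = 0.96), a kinase of blood cells, and Traf1 (r = 0.94), an adaptor of TNF receptors, which rose by 1.27 and 1.48. For Cd68 they were Lst1 (r = 0.96) and Rnase6 (r = 0.95), neither of which passed. The most like genes were Gpank1 and Pacs1 for Csf1r (r = 0.93 for both), Ogfr and Nudt18 for Itgam (r = 0.93 and 0.90), Emd and Tmem141 for Adgre1 (r = 0.98 and 0.96), Phykpl and Arl5b for Cd14 (r = 0.92 and 0.91) and Tmem104 and Pyy for Mpeg1 (r = 0.92 and 0.83). These r are the 2 highest for each marker among the tested rows with an Ensembl identifier, over only 10 libraries.

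Of 22 further macrophage genes, C1qc among them, 6 were tested and none passed by limma at an adjusted p under 0.05, with 2 at an unadjusted p under 0.05 and a median difference of 0.52. Mertk, a receptor for dying cells, was at 6.34 ± 1.51 and 10.2 ± 4.402 FPKM (adjusted p = 0.124), and Fcgr3, an antibody receptor, at 2.42 ± 1.07 and 3.71 ± 1.32 FPKM (adjusted p = 0.177). Defining genes of tissue macrophages were at or near 0: Cd163 and Vsig4 were listed at 0 in every library, Mrc1 and Trem2 did not reach 0.05 FPKM, and Cx3cr1 reached 0.330 FPKM at most. In all, 12 of the 22 stayed under 1 FPKM in every library.

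Of 18 dendritic cell genes 9 were tested and 2 rose, with a median difference of 0.36. Summed over the list, levels were 328 to 505 FPKM in NCD and 277 to 449 FPKM in HCD. Cst3, the listed gene with the lowest p among those lower in HCD, was at 283 ± 41.0 FPKM in NCD and 238 ± 49.8 FPKM in HCD. It did not pass by limma (adjusted p = 0.237). Irf4, a transcription factor that dendritic cells share with lymphocytes, went from 1.01 ± 0.546 to 2.60 ± 0.501 FPKM (adjusted p = 0.00910). Sirpa, an inhibitory receptor of phagocytes, went from 5.47 ± 1.47 to 10.7 ± 3.66 FPKM (adjusted p = 0.0302), but did not pass with replicate number as a block (adjusted p = 0.0591), without the filter on low values (adjusted p = 0.0779), nor when NCD replicate 1 or 3 was left out, nor HCD replicate 1, 3 or 4 (adjusted p of 0.0662 to 0.0776). Of 14 monocyte and granulocyte genes 5 were tested and none passed by limma, with 2 at an unadjusted p under 0.05. Among them Ly6c2, which monocytes share with T cells, was at 4.37 ± 1.34 and 9.53 ± 5.77 FPKM (adjusted p = 0.0513). It passed under scaling without mitochondrial genes (adjusted p = 0.0378), without HCD replicate 2 (adjusted p = 0.0271) and without HCD replicate 5 (adjusted p = 0.0473). Ccr2, the receptor that draws monocytes into tissue, was at 0 to 0.151 FPKM, and the granulocyte genes Mpo and Elane were listed at 0 throughout. Other genes of that list were not at 0. In NCD and HCD, Retnlg was at 26.8 ± 16.2 and 37.3 ± 25.6 FPKM and Siglecf at 0.835 ± 0.684 and 2.14 ± 1.15 FPKM. Plac8 was lower in HCD, at 3599 ± 419 and 2959 ± 798 FPKM.

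Of 12 adaptors and lineage factors of myeloid cells, several of which lymphocytes also make, all were tested, 6 rose, 2 fell and 4 did not pass. Laptm5, a lysosomal protein of leukocytes, went from 35.4 ± 19.6 to 96.8 ± 22.0 FPKM (adjusted p = 0.00259), and Coro1a, which shapes actin in leukocytes, from 72.1 ± 42.9 to 199 ± 46.2 FPKM (adjusted p = 0.00381). Ptprc, the leukocyte marker CD45, went from 2.06 ± 0.799 to 6.52 ± 2.81 FPKM (adjusted p = 0.00537). Fcer1g and Tyrobp, signal adaptors of myeloid and natural killer receptors, rose by 1.45 (adjusted p = 0.0110) and 1.48 (adjusted p = 0.0235). The call of Tyrobp was lost without the filter on low values (adjusted p = 0.0868) and without NCD replicate 3, HCD replicate 1 or HCD replicate 3 (adjusted p of 0.0534 to 0.0561). Spi1 was at 5.17 to 26.5 FPKM in NCD and 8.60 to 32.0 FPKM in HCD and did not pass (adjusted p = 0.210). The factors that fell, Cebpa and Cebpb, are also made by enterocytes, and neither passed under scaling without mitochondrial genes.

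Of 12 chemoattractants 8 were tested, 2 rose and 3 fell, Ccl25, Ccl9 and Cx3cl1. Under scaling without mitochondrial genes 1 of these fell, Ccl25 (adjusted p = 0.0190), and with quantile normalization none passed (Ccl25 adjusted p = 0.0622). Ccl9 also lost its call on leaving out any of NCD replicates 1, 2 and 3 and HCD replicates 1, 2, 3 and 5 (adjusted p of 0.0568 to 0.120). Ccl3 and Ccl4, which both lymphocytes and macrophages secrete, rose by 1.14 (adjusted p = 0.0218) and 1.78 (adjusted p = 0.00141). Ccl3 lost its call without the filter on low values (adjusted p = 0.0751) and on leaving out any of NCD replicates 3 and 5 and HCD replicates 1 and 3 (adjusted p of 0.0515 to 0.0598). Cx3cl1, the ligand of the macrophage receptor CX3CR1, fell from 63.5 ± 7.67 to 46.7 ± 9.51 FPKM (adjusted p = 0.0440). It did not pass under scaling without mitochondrial genes (adjusted p = 0.244), without the filter on low values (adjusted p = 0.0793), without the mean-variance trend (adjusted p = 0.0680), nor on leaving out any of NCD replicates 2, 3, 4 and 5 and HCD replicates 1 and 3 (adjusted p of 0.0705 to 0.0976). Ccl2, which attracts monocytes, did not exceed 1 FPKM in any library.

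Markers of other cells in the preparations differed as follows, and their part in the results on the 10 markers was not tested. All 4 tested haemoglobin genes rose, and the 6 listed red blood cell genes summed to 15.1 to 41.8 FPKM in NCD and 96.6 to 391 FPKM in HCD. Of 16 stromal and endothelial genes 3 were tested and 2 rose, Vim, a filament protein that leukocytes also make, and Pecam1, an adhesion protein of endothelium and leukocytes. The collagen genes Col1a1, Col1a2 and Col3a1 and the endothelial gene Cdh5 were under 1 FPKM in every library. Of 7 tested B and plasma cell markers 1 rose, Jchain, which links antibody chains, and of 6 tested mast cell markers none passed by limma, also at an unadjusted p under 0.05 (0 of 6). Of 12 enterocyte and epithelial markers 6 fell and 1 rose, with 4 falling under scaling without mitochondrial genes.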

How the data were processed

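TRIzol was used to extract RNA, and poly-T beads to capture messenger RNA, per the labels' protocols. The deposited values are FPKM, 1 column per library, and 24839 rows were read, 22036 with an Ensembl identifier and 2803 assembled by the authors without one. The submitters' processing notes name HISAT2, StringTie, DESeq2, edgeR and GRCm38. For roles, versions, annotation and strand, nothing is given in the sources used here. At the best step found, 28.9% to 43.8% of low values per library lay within 0.1 of a whole multiple, against 20% by chance. Most low values did not, so counts were not recovered, no count test was run, and no counting interval can be given. In 27 rows a symbol turned into a date was restored from its identifier.

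FPKM were taken to log2(FPKM + 1), the 10321 rows whose average over the 10 libraries reached 1 FPKM were kept, and HCD was compared with NCD by limma 3.58.1 in R 4.3.3 with a mean-variance trend and Benjamini-Hochberg adjustment. The step was tested on simulated data. Alternatives changed the pseudocount, filter, scaling, moderation, replicate block, run of library numbers and the libraries included. Coordinates are from GENCODE M21, and promoters from RefSeq.

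The members and lists were chosen with earlier results of these data known. Genes named are the 10 markers, 12 fixed partners, up to 4 tested genes per list with the smallest p plus defining markers at 0, and the 2 genes most like each marker. Other genes were named after their values were seen: Cebpa, Cebpb, Spi1, Ctss, Flt3, Xcr1, Clec9a, Zbtb46, Mrc1, Trem2, Cx3cr1, Ccr2, Ccl2, Ccl9, Cd207, Cadm1, C1ra, C1s1, Cd3e, Col1a1, Col1a2, Col3a1 and Cdh5. The result of 1 listed gene is not reported here.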

Additional observations from a re-analysis of the deposited data

Results flagged for a closer look

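In 3 of the 38 groups of libraries examined, 1 library stood far from the other 4, and each time it was HCD replicate 1. Chance flags about 1 in 20 groups. Cd68 was at 9.47 FPKM there, against 3.08 to 4.04 FPKM in the other HCD libraries. Csf1r was at 4.21 FPKM, against 1.93 to 2.36 FPKM. Mpeg1 was at 3.09 FPKM, against 1.77 to 2.10 FPKM. The same library held the highest mitochondrial share, 29.5%, and the highest summed T cell markers, 3907 FPKM. The part of either in these values was not tested.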

How the results depend on the processing

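Of 214 values of the 10 markers under alternatives, 206 kept their direction and their side of the threshold, as did 1802 of 1997 values of other named genes. Of 792 counts of listed genes that rose or fell, 671 were also unmoved. Medians of the lists were not computed under alternatives. Itgax passed in 21 of 22 alternatives and Mpeg1 in 20 of 21. Over all tested rows 2718 passed, but 1797 with scaling without mitochondrial genes, 1811 with quantile normalization, 1420 in replicates 1 to 3 alone and 56 in replicates 4 and 5 alone. In the last setting 0 markers rose, with Itgax at 0.87 and Mpeg1 at 0.49, and Cd14 (-0.35), C1qb (-0.65), Fcgr3 (-0.0045), Rnase6 (-0.029), Gpank1 (-0.040) and Tmem104 (-0.12) were lower in HCD. With a minimum of 5 FPKM, 1 marker rose, because Mpeg1 was then not tested. Leaving out 1 library gave 0.42 to 0.92 for Cd68, 0.28 to 0.70 for Lyz2, -0.10 to 0.22 for Cd14, -0.10 to 0.51 for Mcpt2 and -0.020 to 0.11 for Tmem104, and Cd68 and Lyz2 passed at the upper end. In replicates 1 to 3 alone the sign turned for Mcpt2 (-0.24), Tagln (-0.16), Ogfr (-0.0015) and Phykpl (0.017), with quantile normalization for Cst3 (0.020), Etfb (0.010) and Emd (0.082), and with rescaling to TPM for Tmem104 (-0.022). The cause was not tested. Whether replicate numbers pair the libraries is not given in the labels. Same-numbered libraries had correlations of -0.24 to 0.22, the own number being highest for 1 of 5, which cannot exclude a pairing. With the replicate block in limma 2293 rows passed, and Itgax and Mpeg1 kept their calls (adjusted p = 0.0116 and 0.0286). With depth unknown, values near 1 FPKM have no stated counting error.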
